A study of Mus musculus with 16 samples.

Results

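The endothelial cells that line the hepatic sinusoids were represented by 10 genes, and their mRNA was followed in the livers of mice given cadmium (Cd), a selenium (Se) diet, both or neither. The genes were Stab1, Stab2, Lyve1, Clec4g, Oit3, Gpr182, Fcgr2b, Kdr, Pecam1 and Ehd3. They were taken by gene name from the deposited table, in which each name matched 1 row, so that 10 of 57010 genes are described. The 16 mice were wild-type males of the strain C57BL/6J, as the study's methods give them, and fell into 4 groups of 4. Control mice received neither treatment. Cd mice received CdCl2 at 1.25 mg/kg by daily intraperitoneal injection over 7 days. Se mice ate a diet that held 2 ppm of selenomethionine (SeMet) over 3 months. Cd+Se mice were given that diet together with the same injections. The mice are called here by their numbers in the labels, which are 27 to 30 for control, 1, 2, 5 and 6 for Cd, 39, 40, 41 and 44 for Se, and 13 to 16 for Cd+Se. RNA came from whole liver, so every value is an average over hepatocytes, endothelial cells and all other cells of the tissue. In such bulk RNA, fewer cells of a type and less RNA per cell cannot be told apart.

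Sinusoidal endothelial cells form a wall pierced by open pores (fenestrae) and without an organised basement membrane, so that plasma reaches the hepatocytes directly. They are among the most active scavengers of the body, and clear hyaluronan, modified lipoproteins, collagen fragments and small immune complexes from blood through dedicated endocytic receptors. Their differentiated state depends on vascular endothelial growth factor (VEGF), and in chronic injury they can lose their fenestrae and take on features of ordinary capillaries. In acute Cd poisoning of rodents, the sinusoidal wall is a known site of early injury.

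The authors deposited TPM, a transcript level scaled to transcript length and to the total of each library, and such values keep no record of depth. Precision therefore rested on the 4 mice of each group. Nothing in the labels names a batch. The Cd-binding gene Mt1 followed the labels, at 3178 to 6070 TPM in the mice that received Cd and 50.9 to 431 TPM in the others. Cd+Se mouse 15 stood apart for these genes. It was the lowest of its group for 8 of the 10 and the highest for Lyve1. Cd mouse 5 and Se mouse 44 were likewise the lowest of their groups for 8 of the 10. The summed TPM of 20 genes of endothelium in general (such as Cdh5, Tie1 and Egfl7) was also lowest in these mice, at 42.3 TPM in mouse 15, 55.9 TPM in mouse 5 and 50.5 TPM in mouse 44. The sum of 12 hepatic stellate cell genes was lowest in the same 3 mice, at 114 TPM, 151 TPM and 135 TPM. Results that rest on mouse 15 are therefore given with and without it. It was singled out by its low values of these same genes, so leaving it out raises the Cd+Se means of those 8 in any case. Calls gained without it are thus not independent support. No setting left out Se mouse 44 together with it. Groups were compared on the scale log2(TPM + 1) with limma, in 1 model over all libraries, and a gene is called changed at an adjusted p under 0.05. For genes at a few TPM, the added 1 makes the log2 fold change smaller than that of the TPM themselves. The test covered the 11766 genes whose mean reached 1 TPM, and all 10 of these genes passed that filter.

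In control livers, the Fc receptor gene Fcgr2b and the lectin gene Clec4g had the highest levels, at 38.9 ± 2.44 TPM and 36.8 ± 3.59 TPM (SD, n = 4 here and in every group). Their ranges overlapped. Ehd3 followed at 14.3 ± 1.95 TPM and Stab1 at 10.6 ± 1.09 TPM. Oit3 stood at 8.28 ± 0.959 TPM, Kdr at 8.02 ± 1.06 TPM and Stab2 at 8.01 ± 0.975 TPM, and neighbours among these 4 genes from Stab1 to Stab2 overlapped. Gpr182 at 4.90 ± 0.308 TPM and Pecam1 at 4.66 ± 0.139 TPM overlapped with each other and lay below Stab2. Lyve1 was the lowest, at 2.79 ± 0.871 TPM, and its highest control mouse stayed below the lowest Pecam1 value. The defining sinusoidal genes were thus present in every library, although at the low levels of a minor cell type in whole liver.

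**Figure D1:**
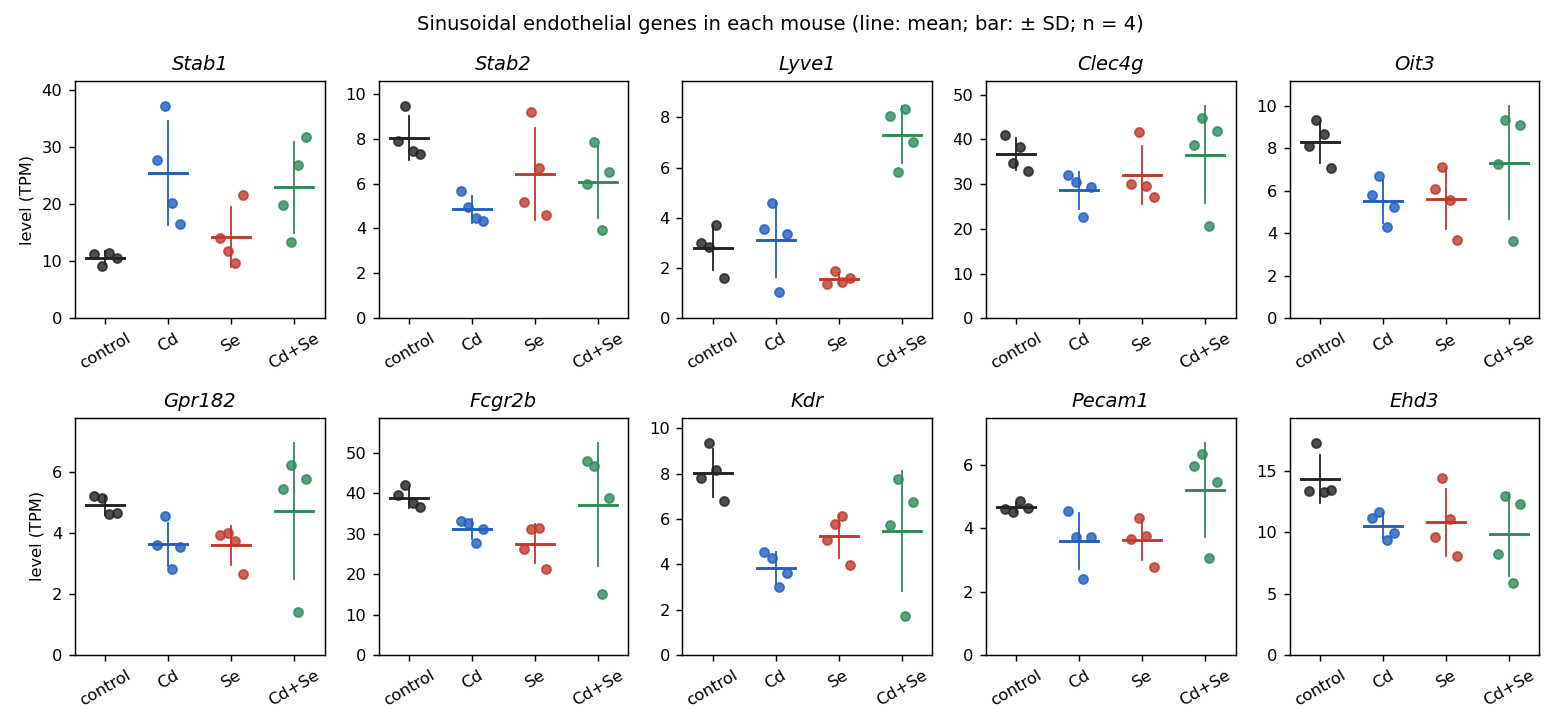
Level in TPM (vertical axis, from 0) of the 10 genes in each mouse by group (horizontal axis), with a line at the mean and a bar of ± SD (n = 4). Stab1 was higher in every Cd mouse than in any control mouse, Lyve1 was highest in the Cd+Se group, and 1 low Cd+Se point recurs in most of the other genes, that of mouse 15.

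The stabilins, Stab1 and Stab2, encode related large scavenger receptors of the sinusoidal wall. The deposited gene annotation gives both of them low-density lipoprotein receptor and scavenger receptor activity, the second of which it gives to 20 of the 11766 genes tested (0.17%). It gives hyaluronic acid binding to both and to Lyve1, and to 8 of the genes tested in all. Macrophages also express Stab1. Stab1 lies on chromosome 14 at 31139013 to 31168641 and Stab2 on chromosome 10 at 86841198 to 87008025, both on the minus strand (GENCODE M21, GRCm38). Because their mRNAs moved in opposite directions under Cd, and Kdr moved with Stab2, the stretches just before their starts are shown. They come from the RefSeq promoter table (GRCm38.p6), which matched 6 of the 10 genes. They are written 5′ to 3′ in the direction of transcription, and bases inside the annotated gene were left off. Capitals mark matches to AGGAAG or CGGAAG on either strand, patterns that ETS-family factors bind. Other patterns bound by that family were not searched.
Stab1 (chr14:31168642-31168891, minus strand): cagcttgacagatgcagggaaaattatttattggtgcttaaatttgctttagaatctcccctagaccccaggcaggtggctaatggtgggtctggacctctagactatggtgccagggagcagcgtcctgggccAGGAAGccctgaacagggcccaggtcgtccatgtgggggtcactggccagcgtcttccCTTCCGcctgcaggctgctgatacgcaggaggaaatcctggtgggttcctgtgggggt
Stab2 (chr10:87008026-87008192, minus strand): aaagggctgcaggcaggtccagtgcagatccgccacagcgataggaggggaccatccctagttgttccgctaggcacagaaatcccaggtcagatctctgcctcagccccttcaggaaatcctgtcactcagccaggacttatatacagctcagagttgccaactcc
Kdr (chr5:75978459-75978705, minus strand): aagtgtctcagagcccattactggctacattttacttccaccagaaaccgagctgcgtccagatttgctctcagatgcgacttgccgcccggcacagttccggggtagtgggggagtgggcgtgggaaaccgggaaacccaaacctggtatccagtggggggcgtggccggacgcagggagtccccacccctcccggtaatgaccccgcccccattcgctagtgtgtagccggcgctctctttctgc
Over the 250 bases before the RefSeq start, Stab1 held 2 ETS matches, beginning 116 and 58 bases before the start. Stab2 held 1 match, from 40 to 35 bases before the start, which lies inside the annotated gene and so beyond the stretch shown. Kdr held none. Such a match was present in 39.2% of 32851 RefSeq promoters of the same length and in 3 of the 6 matched here, the third being that of Clec4g. For binding letters of the GATA factors (AGATAA or TGATAA), the 6 held no match, and 16.6% of all promoters held one. They held none to the core of the metal-response element (TGCACNC or TGCGCNC), which 21.4% held, and none to the AP-1 motif (TGANTCA), which 6.75% held. Both strands were searched for each motif. The promoters of Lyve1, Oit3, Gpr182 and Pecam1 were not analysed here.

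Stab1 was higher after Cd. It stood at 11.3, 9.08, 11.5 and 10.6 TPM in control mice 27, 28, 29 and 30, and at 27.7, 37.1, 20.2 and 16.6 TPM in Cd mice 1, 2, 5 and 6. All 4 Cd mice lay above all 4 control mice, and Cd mouse 2 was the highest of all 16 mice. The mean was 25.4 ± 9.08 TPM in Cd mice, 2.39 times the control mean. The log2 fold change was 1.13 (standard error 0.27, 95% interval 0.54 to 1.71, limma adjusted p = 0.0066), and the call held under all 24 other settings tried. In Cd+Se mice 13, 14, 15 and 16 the levels were 19.9, 13.3, 26.8 and 31.7 TPM, again above every control mouse. They overlapped with those of the Cd mice, with a log2 difference of -0.15 (95% interval -0.73 to 0.43, limma adjusted p = 0.742). Against control, Cd+Se mice differed by 0.98 on the log2 scale (standard error 0.27), and this did not pass the test (limma adjusted p = 0.149). Se mice 39, 40, 41 and 44 had 14.01, 11.7, 9.70 and 21.6 TPM, and overlapped with control. Se mouse 44, the lowest of its group for 8 other genes, was the highest for Stab1. Exons of Stab1 overlap over 112 bases with Nt5dc2 on the opposite strand, and how the counting treated strand is not given in the sources used here. Nt5dc2 went the other way, with 1.92 ± 0.297 TPM in Cd and 4.05 ± 1.04 TPM in control mice.

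Stab2 was lower after Cd. Control mice had 7.87, 9.43, 7.45 and 7.30 TPM and Cd mice 5.68, 4.94, 4.45 and 4.31 TPM. The highest Cd mouse lay below the lowest control mouse. Mean levels were 8.01 ± 0.975 TPM in control and 4.84 ± 0.619 TPM in Cd, a log2 fold change of -0.62 with a standard error of 0.19 (limma adjusted p = 0.0205). Cd+Se mice stood at 5.96, 7.85, 3.95 and 6.52 TPM, between and across the ranges of the other groups, with a log2 difference from Cd of 0.25 (95% interval -0.15 to 0.65, limma adjusted p = 0.374). Se mice stood at 5.16, 9.19, 6.69 and 4.62 TPM and overlapped with control. The call of Stab2 in Cd against control was lost after quantile normalization (limma adjusted p = 0.0691), after subtraction of the library median (limma adjusted p = 0.0689), without a filter on low values (limma adjusted p = 0.0527), and on leaving out control mouse 28, Cd mouse 5 or Cd mouse 6, with the direction unchanged in each.

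The ratio of Stab1 to Stab2 within a library does not depend on how the libraries are scaled to each other. It was chosen after the levels were seen, and is given without a test. In control mice it ranged from 0.963 to 1.54 and in Cd mice from 3.84 to 7.51, so that the ranges lay apart. In Cd+Se mice it ranged from 1.69 in mouse 14 to 6.78 in mouse 15, and in Se mice from 1.27 in mouse 40 to 4.69 in mouse 44. Mice 15 and 44 were those in which most sinusoidal genes were lowest, Stab2, the denominator, among them. In the Cd group, mouse 2 had the highest ratio, and mouse 5, the lowest for most genes, stood at 4.55.

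**Figure D2:**
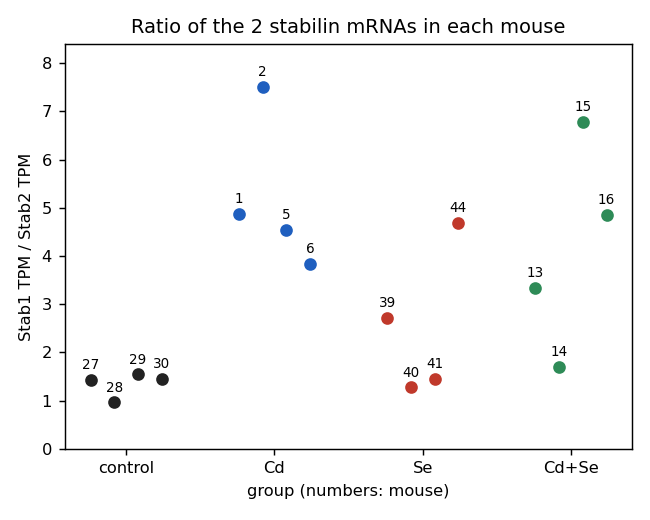
Ratio of Stab1 TPM to Stab2 TPM (vertical axis, from 0) in each mouse by group (horizontal axis), with mouse numbers beside the points. Every Cd mouse lay above 3.8 and every control mouse below 1.6. Se mice 40 and 41 lay within the control range, and Se mouse 44 and Cd+Se mice 15 and 16 within the Cd range. Se mouse 39 and Cd+Se mice 13 and 14 lay between.

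Lyve1 encodes a hyaluronan receptor of sinusoidal and lymphatic endothelium, and some tissue macrophages express it too. It was highest in the mice that received both treatments. Control mice had 2.98, 2.85, 3.72 and 1.62 TPM and Cd mice 3.57, 4.59, 1.04 and 3.34 TPM. The ranges overlapped, with a log2 difference of 0.06 (95% interval -0.47 to 0.59, limma adjusted p = 0.869). Cd+Se mice had 8.05, 5.84, 8.32 and 7.04 TPM, each of them above every mouse of the other 3 groups. The mean of 7.31 ± 1.13 TPM compared with 3.14 ± 1.50 TPM in Cd mice, 1.58 ± 0.226 TPM in Se mice and 2.79 ± 0.871 TPM in control mice. The log2 difference of Cd+Se from Cd was 1.09 (standard error 0.25, limma adjusted p = 0.0138), and from Se it was 1.68 (standard error 0.25, limma adjusted p = 0.00278). From control it was 1.15 (standard error 0.25, limma adjusted p = 0.0564), just short of the threshold, which it passed under 5 of 23 other settings. Se mice had 1.38, 1.88, 1.43 and 1.61 TPM, and Se against control gave -0.53 (95% interval -1.06 to -0.0022, limma adjusted p = 1). The interaction, the effect of Cd in Se-fed mice less that in mice on the plain diet, was 1.62 for Lyve1 (standard error 0.35, limma adjusted p = 0.0434), and it held under 9 of 22 other settings. The call of Cd+Se against Cd was lost when only these 2 groups were modelled (limma adjusted p = 0.0719) and when Cd mouse 5, at 1.04 TPM, and Cd+Se mouse 15 were both left out (limma adjusted p = 0.0507). Lyve1 has no exon in common with a neighbour. Prox1, the transcription factor of lymphatic endothelium, is also expressed by hepatocytes, and stood at 25.4 ± 4.21 TPM in control, 9.89 ± 2.62 TPM in Cd and 20.2 ± 3.20 TPM in Cd+Se mice. The lymphatic genes Pdpn, Ccl21a and Mmrn1 stayed at or below 0.83 TPM in every library.

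For Clec4g, Fcgr2b, Oit3, Gpr182 and Ehd3, the Cd mice lay wholly below the control mice in deposited TPM, and none of these differences passed the test. After centring on the library median, the log2 differences shrank to -0.14, -0.09, -0.30, -0.14 and -0.19 in that order. Overlap of the groups was not examined on that scale. Clec4g encodes a C-type lectin of sinusoidal and lymph node endothelium. It stood at 40.9, 34.8, 38.4 and 32.9 TPM in control mice and 32.1, 30.6, 22.7 and 29.3 TPM in Cd mice, which lay below all control mice. The log2 difference was -0.36 (95% interval -0.78 to 0.07) and was not called (limma adjusted p = 0.193). Levels in Cd+Se mice were 38.8, 44.8, 20.7 and 41.9 TPM. Mouse 15 was below every Cd mouse and the other 3 lay above every Cd mouse. Se mice had 30.03, 41.6, 29.7 and 27.04 TPM.

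Fcgr2b encodes the inhibitory Fc gamma receptor, which in liver sits mainly on sinusoidal endothelium and takes up small immune complexes. Macrophages and B cells express it as well. Its levels were 39.5, 42.1, 37.6 and 36.5 TPM in control and 33.2, 32.5, 27.7 and 31.2 TPM in Cd mice. Again the groups did not overlap, while the log2 difference of -0.31 (95% interval -0.86 to 0.24) was not called (limma adjusted p = 0.378). The Cd+Se mice were split, with 47.9, 46.9 and 38.8 TPM in mice 13, 14 and 16 and 15.1 TPM in mouse 15. Se mice had 26.2, 31.3, 31.5 and 21.2 TPM and lay wholly below the control mice, at a log2 difference of -0.50 (95% interval -1.05 to 0.05, limma adjusted p = 1).

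Oit3, a secreted protein with a zona pellucida domain made by sinusoidal endothelium in liver, stood at 8.11, 9.32, 8.65 and 7.05 TPM in control mice and 5.79, 6.68, 4.31 and 5.22 TPM in Cd mice. The groups did not overlap, and the log2 difference was -0.52 (standard error 0.23, limma adjusted p = 0.0891). Oit3 in Cd+Se mice was at 7.25, 9.35, 3.62 and 9.08 TPM and in Se mice at 6.08, 7.14, 5.57 and 3.70 TPM. Gpr182, an atypical chemokine receptor of sinusoidal and lymphatic endothelium, had 5.20, 5.13, 4.61 and 4.66 TPM in control and 3.61, 4.55, 2.83 and 3.54 TPM in Cd mice. These groups too lay apart without a call (log2 difference -0.36, standard error 0.26, limma adjusted p = 0.314). Gpr182 was at 5.44, 6.24 and 5.77 TPM in Cd+Se mice 13, 14 and 16 and at 1.42 TPM in mouse 15, and at 3.94, 4.0, 3.75 and 2.66 TPM in Se mice, all below control.

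Ehd3, which encodes an ATPase that recycles endocytosed membrane, had 13.3, 17.2, 13.3 and 13.5 TPM in control mice and 11.1, 11.6, 9.36 and 9.92 TPM in Cd mice. The groups lay apart, at a log2 difference of -0.41 (standard error 0.20, limma adjusted p = 0.137). Cd+Se mice had 8.22, 12.9, 5.84 and 12.3 TPM. These lay wholly below the control mice as well, with a log2 difference of -0.55 (95% interval -0.98 to -0.12, limma adjusted p = 0.312). Se mice had 9.62, 14.4, 11.1 and 8.07 TPM and overlapped with control.

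Kdr encodes VEGF receptor 2, the main signalling receptor for VEGF-A on endothelial cells, and Pecam1 the adhesion molecule CD31, which is present on all endothelium and on platelets and leukocytes. Kdr fell after Cd. It stood at 7.79, 9.35, 8.16 and 6.79 TPM in control and at 4.54, 4.30, 2.98 and 3.60 TPM in Cd mice, with no overlap. The Cd mean of 3.86 ± 0.707 TPM was 0.481 of the control mean, and the log2 fold change was -0.90 (standard error 0.27, 95% interval -1.47 to -0.32, limma adjusted p = 0.0204). Cd+Se mice had 5.72, 7.77, 1.71 and 6.75 TPM. Mouse 15 was the lowest of all 16 libraries and the other 3 lay above every Cd mouse. Se mice had 5.08, 5.78, 6.13 and 3.99 TPM, all below control, at a log2 difference of -0.54 (95% interval -1.11 to 0.04, limma adjusted p = 1). The call of Kdr in Cd against control was lost after quantile normalization (limma adjusted p = 0.0501), after centring on the library median (limma adjusted p = 0.0561), without a filter (limma adjusted p = 0.0604) and on leaving out control mouse 28 or Cd mouse 5. Without Cd+Se mouse 15 in the model, the standard error was 0.15 and the limma adjusted p was 0.000714.

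Pecam1 varied least in control mice, at 4.62, 4.52, 4.85 and 4.64 TPM. Cd mice had 4.55, 3.71, 2.40 and 3.71 TPM, and Cd mouse 1 overlapped with control. The log2 difference was -0.32 (95% interval -0.71 to 0.06, limma adjusted p = 0.190). Cd+Se mice had 5.97, 6.35, 3.05 and 5.45 TPM, so that 3 of the 4 exceeded every control mouse. The log2 difference from Cd of 0.42 was not called (95% interval 0.03 to 0.81, limma adjusted p = 0.122). Se mice had 3.65, 4.33, 3.76 and 2.79 TPM and lay below control.

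Of the 10 genes, 3 were called in Cd against control. Stab1 rose, and Kdr and Stab2 fell. Over all genes tested, 30.8% were called in this comparison, 5.82% as higher and 24.9% as lower. In this model over all libraries, the count among the sinusoidal genes was thus close to that of genes at large. The model's variance also draws on Cd+Se mouse 15, which is in neither group compared. With only the Cd and control mice modelled, 6 of the 10 were called, against 3568 of the 11766 genes tested. The groups lay apart in 8 of the 10, with Stab1 above control and 7 genes below, against 34.2% of all genes tested in either direction, 6.44% above and 27.8% below. The median log2 difference of the 10 genes was -0.36, and that of all genes tested was -0.17. Quantile normalization moved the all-gene median to -0.01 and centring moved it to 0.05, and under both the rise of Stab1 alone was called among the 10, against 14.5% and 19.2% of all genes called as higher. Without Cd+Se mouse 15 in the model, 5 were called, with Stab1 higher and Kdr, Stab2, Oit3 and Gpr182 lower, against 32.2% of all genes.

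In Cd+Se against Cd, which uses the same Cd mice, 1 of the 10 was called, the rise of Lyve1, against 15.9% of all genes tested (13.6% as higher). Lyve1 was also the 1 gene whose groups lay apart, against 19.2% of all genes (16.1% with Cd+Se above). The median log2 difference was 0.27 for the 10 genes and 0.17 for all. This comparison turned on mouse 15, which was singled out by its low values of these genes. Without it, 6 of the 10 were called, all higher in Cd+Se, against 11% of all genes (9.55% as higher). They were Lyve1 at a log2 difference of 1.03, Kdr at 0.68, Pecam1 at 0.61, Gpr182 at 0.57, Clec4g at 0.54 and Fcgr2b at 0.50, with limma adjusted p from 0.0209 to 0.0377. The median of the 10 was then 0.55, and that of all genes 0.18. With Cd mouse 5 left out as well, 0 were called by limma, against 4.16% of all genes, and 7 of the 10 had an unadjusted p under 0.05, against 23.7%.

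**Figure D3:**
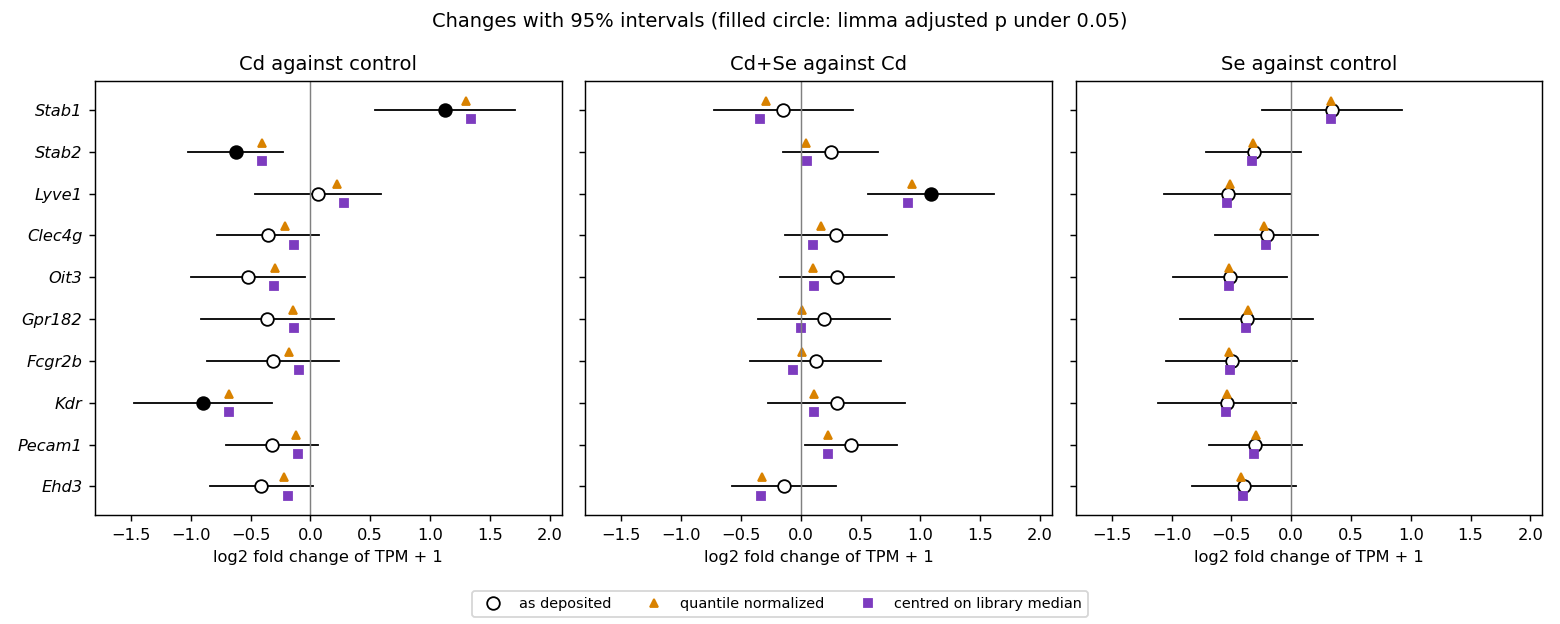
Log2 fold change of TPM + 1 (horizontal axis) of each gene (vertical axis) in 3 comparisons, with 95% intervals and with filled circles where the limma adjusted p was under 0.05. Triangles and squares give the change after quantile normalization and after centring on the library median, which shift the values of Cd against control upwards and leave those of Se against control in place.

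In mice fed Se without Cd, 9 of the 10 genes had lower means than control, Stab1 being the exception. None was called by limma, as was none of the 11766 genes tested (0%), while 454 of all genes (3.86%) had an unadjusted p under 0.05, Lyve1 and Oit3 among them. The Se mice lay wholly below the control mice in 4 of the 10, namely Gpr182, Fcgr2b, Kdr and Pecam1, against 1.79% of all genes tested that lay below and 3.09% that lay apart either way. The median log2 difference was -0.38 for the 10 genes and 0.01 for all genes. A median below 0 was not particular to the 10. Among the lists described below, it was -0.23 for general endothelial, -0.26 for further sinusoidal, -0.26 for stellate, -0.34 for leukocyte and -0.20 for Kupffer genes. It was 0.02 for hepatocyte genes, 0.07 for genes of capillary-type or activated endothelium and 0.01 for endocytosis genes. The 10 genes share libraries and cells, and are not independent of each other. Se mouse 44 was the lowest for 8 of them.

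When Cd+Se mice were compared with control mice, 0 of the 10 were called by limma, against 0.484% of all genes tested, and 4 had an unadjusted p under 0.05 (Stab1, Lyve1, Kdr and Ehd3), against 10.9% of all genes. The groups lay apart for Stab1 and Lyve1, which were above control, and for Ehd3, which was below, against 8.86% of all genes (3.88% above and 4.98% below). Set against Se mice, Cd+Se mice had 1 gene called, the rise of Lyve1, against 0.714% of all genes (0.544% as higher). For it the groups lay apart, against 5.64% of all genes (1.96% above). Without mouse 15 there were 2, Lyve1 and Fcgr2b, and with Cd mouse 5 left out as well there were 4, with Pecam1 and Gpr182 added, against 1.64% and 1.97% of all genes. The interaction was called for 1 of the 10, Lyve1, against 1.04% of all genes (0.901% as higher). Without mouse 15, which was singled out by its low values of these genes, the interaction was called for 4, against 1.05% of all genes. These were Kdr at 1.21, Oit3 at 1.07, Fcgr2b at 1.0 and Gpr182 at 0.94 on the log2 scale (limma adjusted p from 0.0265 to 0.0490), while that of Lyve1 was 1.56 (limma adjusted p = 0.0572). In each of these 4, the Cd and the Se means both lay below the control mean. Of Cd+Se mice 13, 14 and 16, all 3 were above the lowest control mouse for Oit3, Fcgr2b and Gpr182, and 1 was for Kdr. Of the lists described below, 5 of 19 general endothelial, 3 of 20 further sinusoidal and 0 of 9 stellate genes tested were called for the interaction without mouse 15. The median interaction was then 0.93 for the 10 genes, 0.59, 0.72 and 0.99 for these lists in turn, and 0.17 for all genes.

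**Figure D4:**
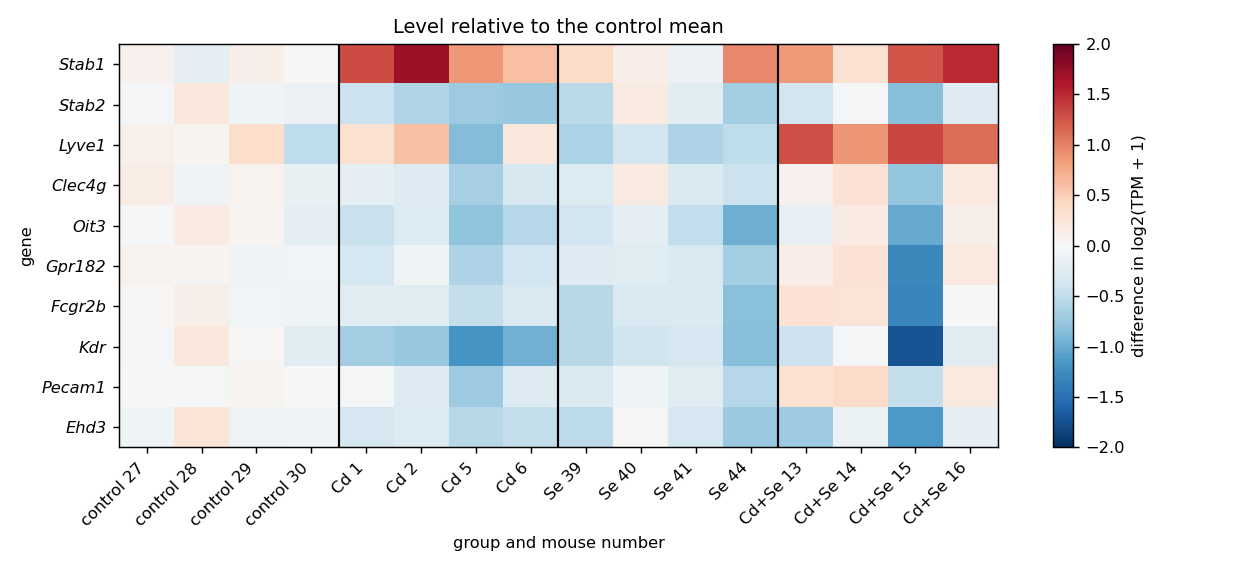
Difference of log2(TPM + 1) from the control mean (colour scale from -2 to 2) for each gene (rows) in each mouse (columns, by group and mouse number). The Stab1 row is red across the Cd group, the Lyve1 row is red across the Cd+Se group, and the columns of Cd mouse 5, Se mouse 44 and Cd+Se mouse 15 are the bluest of their groups in most other rows.

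Whether these genes moved with the endothelium as a whole was asked by subtracting, in each library, the mean log2(TPM + 1) of the 20 general endothelial genes, which include none of the 10. Some of the 20 have low levels (Tie1 2.06, Tek 1.84 and Sox18 1.28 TPM on average), where the added 1 shrinks changes more. An equal proportional fall of all endothelial genes could therefore leave a gene at a higher level lower relative to that mean. Relative to that mean, Stab1 was higher in Cd than in control by 1.28 (limma adjusted p = 0.0249) and Kdr was lower, with a difference of -0.74 (limma adjusted p = 0.0135). Stab2 differed by -0.47, just short of the threshold (limma adjusted p = 0.0509). The 2 genes called compare with 9.46% of all genes tested on this scale, 4.77% as higher and 4.69% as lower. The call of Stab1 was lost with a pseudocount of 0.1 and on leaving out control mouse 27, 28 or 29 or Cd mouse 1, 2 or 5, while Kdr was called under each of these. Single libraries moved the share of all genes as well. Without Cd+Se mouse 15 it was 28.5%, and 4 of the 10 were called (Stab1 higher, and Kdr, Stab2 and Oit3 lower). Without Cd mouse 5 it was 3.17%, and Kdr alone was called. For Cd+Se against Cd, 0 of the 10 were called by limma relative to general endothelium, against 0.765% of all genes. Without mouse 15 it was again 0 by limma, against 13.8% of all genes, with 3 of the 10 and 3565 of all genes at an unadjusted p under 0.05. Without Cd mouse 5 it was also 0, against 0.085% of all genes. With all mice, Lyve1, at 0.94, was the 1 gene of the 10 with an unadjusted limma p under 0.05 (adjusted p = 0.0970), against 16.6% of all genes. On this scale the 9 genes other than Lyve1 lay between -0.30 and 0.27. In Se against control on this scale, 0 of the 10 had an unadjusted limma p under 0.05, against 1597 of the 11766 genes tested. The interaction was called for 0 of the 10 by limma, against 5 of all genes, and without mouse 15 for 3, against 3536.

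Of the general endothelial genes themselves, 19 of 20 were tested, and 5 were lower and 0 higher in Cd than in control, a share close to the 24.9% of all genes called lower. The largest of these changes were those of Adgrl4 at -0.89, Ptprb at -0.67 and Clec14a at -0.67 on the log2 scale. With Se added to Cd, 1 was higher than in Cd (Adgrl4, 0.68), against 13.6% of all genes, and 7 were without mouse 15, against 9.55%. A list of 24 further sinusoidal genes (secreted factors, transcription factors and receptors) had 20 tested, of which 7 were lower and 0 higher in Cd than in control, against the same 24.9%. These included the water channel Aqp1, which went from 27.2 ± 4.41 TPM to 11.7 ± 2.38 TPM (log2 fold change -1.15, limma adjusted p = 0.00195), the secreted nuclease Dnase1l3 (-0.93) and coagulation factor VIII, F8 (-0.81). Here too Cd+Se mice exceeded Cd mice in 1 gene (Aqp1, 0.91), and in 6 without mouse 15, against the same 13.6% and 9.55%. The median log2 differences in Cd against control were -0.08 for the general endothelial genes and -0.24 for the further sinusoidal genes.

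Among VEGF and angiopoietin ligands and receptors, 8 of 12 genes were tested, and 3 were lower and 1 higher in Cd (2 higher without mouse 15), against 24.9% and 5.82% of all genes. Nrp1, a co-receptor of Kdr for VEGF-A, went from 23.8 ± 2.58 TPM to 10.2 ± 2.24 TPM (log2 fold change -1.17, limma adjusted p = 0.00048), Nrp2 fell by 0.60 on the log2 scale, and the ligand gene Vegfc rose by 0.49. Cd+Se mice exceeded Cd mice in Nrp1 by 0.66 and in Nrp2 by 0.61 on the log2 scale, with 2 higher and 0 lower in all, against 13.6% of all genes called higher. Of 18 genes of capillary-type or activated endothelium, 12 were tested and 0 were called by limma in Cd against control (2 at an unadjusted p under 0.05, against 42.5% of all genes). In Cd+Se against Cd, 4 were higher and 0 lower, against 13.6% of all genes called higher, and 2 were higher without mouse 15, against 9.55%. Among the 4 were the basement membrane collagen gene Col4a1 (0.68) and the leukocyte adhesion receptor gene Vcam1 (0.65). Against control, Icam1, another leukocyte adhesion receptor gene, was higher in Cd+Se mice by 0.89. Of 20 genes of the endocytosis machinery, which all cells use, 19 were tested. In Cd, 4 were lower and 1 higher, against 24.9% and 5.82% of all genes, with the clathrin heavy chain gene Cltc at -0.77, Ap2b1, a clathrin adaptor subunit gene, at -0.60 and Ehd1, a relative of Ehd3, at -0.51. Cd+Se mice had 4 higher and 0 lower than Cd mice, with Cltc at 0.70, against 13.6% of all genes called higher. Without mouse 15 there were 2 higher, against 9.55%.

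Other cells of the liver share some of these genes, and their marker lists moved as well. All 12 Kupffer cell genes were called lower in Cd than in control, against 24.9% of all genes tested. Their summed level ranged from 198 to 239 TPM in control, 78.7 to 116 TPM in Cd, 133 to 265 TPM in Se and 75.7 to 144 TPM in Cd+Se mice, and 0 of the 12 were at 0 in any library. Cd163 fell by 2.56, Vsig4 by 1.96 and Timd4 by 1.90 on the log2 scale. Stab1, Fcgr2b and Lyve1 are also macrophage genes, and the Kupffer list covers resident macrophages only. Stab1 rose in Cd against control, where that list fell. Lyve1 rose by 1.68 in Cd+Se against Se, where 4 of the 12 Kupffer genes were lower and 0 higher, against 0.714% of all genes called. The largest of these falls were those of Cd163 by 2.07, Vsig4 by 1.55 and Timd4 by 1.46 on the log2 scale. Lyve1 also rose in Cd+Se against Cd, by 1.09. There 1 Kupffer gene was higher (Adgre1, 0.78) and 0 were lower, against 13.6% of all genes called higher. Leukocyte genes had 4 of 8 tested, of which 3 were higher and 0 lower in Cd, against 5.82% of all genes called higher, with S100a8 at 1.55, S100a9 at 1.53 and Ly6c2 at 0.66. Their sum ranged from 12.1 to 22.7 TPM in control, 37.0 to 47.3 TPM in Cd, 8.82 to 14.2 TPM in Se and 47.3 to 82.7 TPM in Cd+Se mice. Both Stab1 and the leukocyte sum lay wholly above the control range in the groups that received Cd. In Se mice 39, 40, 41 and 44, Stab1 was at 14.01, 11.7, 9.70 and 21.6 TPM, and the leukocyte sum at 8.82, 12.65, 14.2 and 10.7 TPM. Of 12 stellate cell genes, 9 were tested and 2 were lower in Cd, against 24.9% of all genes. Without mouse 15, 1 was higher in Cd, against 739 of the 11766 genes tested. Cd+Se mice exceeded Cd mice in 1 stellate gene, against 13.6% of all genes, or in 5 without mouse 15, against 9.55%. The part of macrophages, incoming leukocytes or stellate cells in the levels of the sinusoidal genes was not tested.

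**Figure D5:**
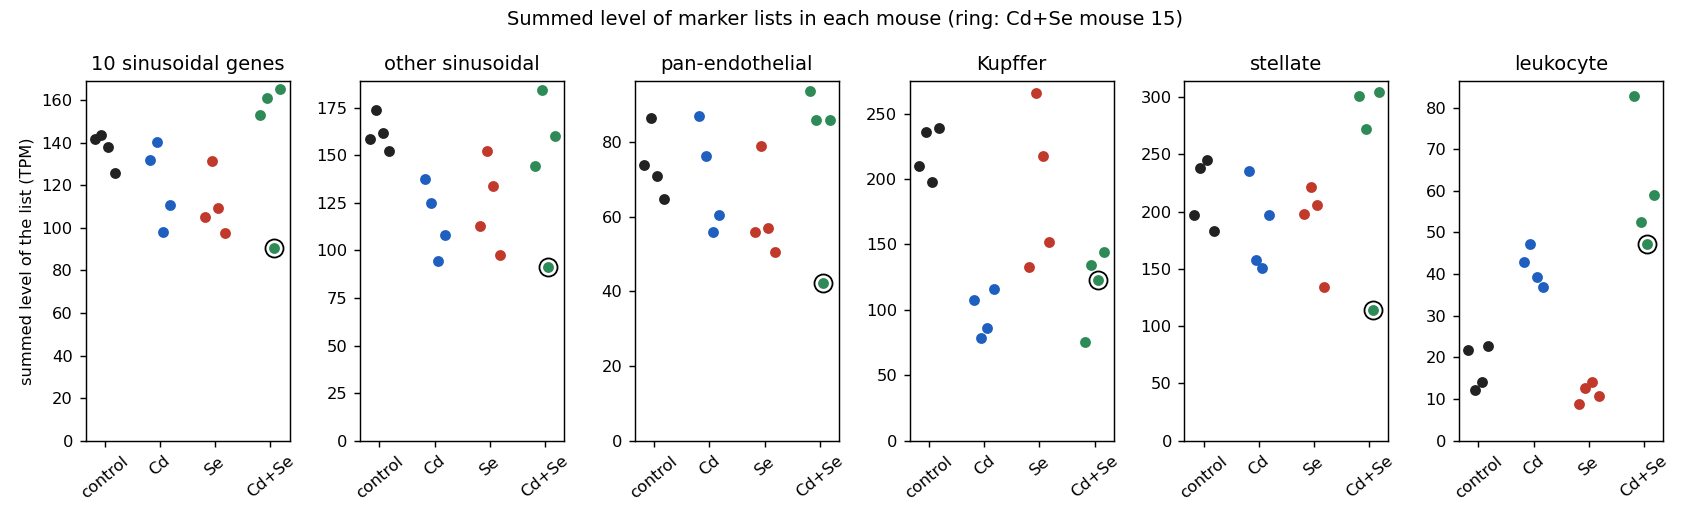
Summed level in TPM (vertical axis, from 0) of the 10 sinusoidal genes and of 5 marker lists in each mouse by group (horizontal axis), with a ring around Cd+Se mouse 15. The Kupffer sum of every Cd mouse lay below that of every control mouse, the leukocyte sum lay above, and mouse 15 was the lowest Cd+Se mouse for the endothelial and stellate lists.

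The 8 genes other than Stab1 and Lyve1, a set chosen after the values were seen, moved together from mouse to mouse. Across the 16 libraries, their 28 pairwise Pearson correlations of log2(TPM + 1) ranged from 0.504 to 0.948, with a median of 0.830, and after the group means were subtracted from 0.709 to 0.955, with a median of 0.864. The libraries share 1 scaling to a fixed total, and 3 libraries, those of mice 5, 44 and 15, were low for most of these genes. Against the mean of the other 9 genes, the correlation was -0.38 for Stab1 and 0.22 for Lyve1.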

How the data were processed

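Liver mRNA of 16 mice was enriched by poly(A) selection after TRIzol extraction and sequenced on an Illumina NovaSeq. The authors deposited 1 table of TPM per gene and library. The submitters' processing notes name fastp, HISAT2 and StringTie without versions, and list GRCh38, a human build, although the table holds mouse Ensembl identifiers. Depth per library is unknown, since TPM keep none.

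The 10 genes, the other gene lists and the tests were chosen with earlier results of these data known. Groups came from the sample titles and treatment labels, where nothing pairs mice across groups. The lists were written from general knowledge of liver cell types.

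Values were taken as log2(TPM + 1). The 11766 genes that averaged 1 TPM or more entered 1 limma 3.58.1 model (R 4.3.3) that gave each group of 4 its own mean, with an intensity trend in eBayes and Benjamini-Hochberg adjustment over all genes tested (threshold 0.05). The same model was run after subtracting each library's mean over 20 general endothelial genes. The steps were tested on simulated data. Named were all 10 genes, and of each other list at most 3 genes past the threshold with the largest changes. The genes most like the 10 were the 10 with the highest Pearson correlation with their mean z-score. For 1 gene of these lists, values are not reported here. Nt5dc2, Prox1, Mt1, and marker genes named for their levels were added.

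Alternatives were a pseudocount of 0.1, no filter, a mean of at least 5 TPM, quantile normalization, centring on the library median, only the groups compared, no trend and leaving out each mouse. Singling out Cd+Se mouse 15, and leaving it out together with Cd mouse 5, were chosen after seeing the data. Positions are from GENCODE M21 (GRCm38) and promoters from RefSeq (GRCm38.p6).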

Additional observations from a re-analysis of the deposited data

Results flagged for a closer look

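Gpr182 in Cd+Se mouse 15, at 1.42 TPM, lay far below the other 3 Cd+Se mice, at 5.44, 5.77 and 6.24 TPM. The gap to its nearest neighbour was 0.834 of the range of the group, above the 95% critical value of Dixon's test for 4 samples. Ehd3 in control mouse 28, at 17.2 TPM, lay above the other control mice, at 13.3, 13.3 and 13.5 TPM, with a gap of 0.952 of the range. These were 2 of 40 groups of 4 mice examined, and chance gives 2. Without control mouse 28, Kdr and Stab2 were no longer called in Cd against control. The effect of Cd on Lyve1 differed between the diets by 1.62 on the log2 scale, by the interaction term of the limma model (standard error 0.35, adjusted p = 0.0434). Cd+Se mice were above Se mice in 4 of 4 mice, while Cd and control mice overlapped.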

How the results depend on the processing

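Among log2 fold changes of single genes, 421 of the values recomputed under other settings kept direction and side of the threshold, 12 gained and 10 lost the call and 9 turned sign, and on leaving out 1 mouse 913 kept both, 14 gained, 16 lost and 17 turned. In Cd against control, 3 genes were called as deposited, and 1 after quantile normalization, centring on the library median or no filter. Of the 11766 genes tested, 3986 were called after quantile normalization and 4064 after centring. With only the groups compared, 6 were called (Stab1, Kdr, Stab2, Oit3, Fcgr2b and Ehd3), against 3568 of all genes. On leaving out 1 mouse, 1 to 5 were called. Relative to general endothelium, 2 became 4 with only the groups compared, against 4202 of all genes. It became 1 with a pseudocount of 0.1 and 1 to 4 on leaving out 1 mouse. In Cd+Se against Cd, 1 became 0 with only the groups compared, against 66 of all genes. It also became 0 with a mean of at least 5 TPM, which drops Lyve1, and without mice 5 and 15, against 4.16% of all genes. On leaving out 1 mouse it was 1 to 6. In Cd+Se against Se, 1 became 0 with a mean of at least 5 TPM and 1 to 2 on leaving out 1 mouse. Without both mice it became 4, against 1.97% of all genes. In Cd+Se against control, 0 became 1 after quantile normalization, centring or leaving out both mice, and 0 to 1 on leaving out 1. Of all genes, 104 were called there after quantile normalization and 101 after centring. The interaction count of 1 became 0 with a pseudocount of 0.1, no filter or a mean of at least 5 TPM, 4 without both mice and 0 to 4 on leaving out 1. The cause was not tested.

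No called value turned sign. Without mice 5 and 15, the difference in Cd+Se against control became 0.18 for Clec4g, 0.041 for Oit3, 0.21 for Gpr182 and 0.19 for Fcgr2b, that against Se 0.10 for Stab2, 0.32 for Kdr and 0.045 for Ehd3, and that against Cd 0.012 for Ehd3. Centring gave -0.069 for Fcgr2b in Cd+Se against Cd. On leaving out 1 mouse, Cd+Se against control ranged from -0.17 to 0.18 for Clec4g, -0.35 to 0.19 for Fcgr2b, -0.32 to 0.21 for Gpr182 and -0.35 to 0.041 for Oit3. Cd+Se against Cd ranged from -0.28 to 0.060 for Ehd3, -0.036 to 0.50 for Fcgr2b and -0.32 to 0.078 for Stab1. Cd+Se against Se ranged from -0.30 to 0.045 for Ehd3, -0.25 to 0.32 for Kdr and -0.18 to 0.11 for Stab2, and Cd against control from -0.11 to 0.37 for Lyve1.

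With 4 mice a group and unknown depth, a difference that missed the threshold does not show equal levels.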

Other observations

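The genes whose levels across the 16 libraries were most like the mean of the 10 were Rgl1 (Pearson r = 0.929), Ets1 (0.926), Epb41l2 (0.908), Mmrn2 (0.908), Tie1 (0.900), Itpkb (0.899), Clec14a (0.898), Slc43a3 (0.897), Clic1 (0.895) and Gabbr2 (0.890). Ets1 encodes an ETS-family transcription factor and Tie1 an endothelial receptor kinase, and Mmrn2, Tie1 and Clec14a were among the 20 general endothelial genes. After the group means were subtracted, the 10 closest were Ets1 (0.958), Clic1 (0.947), Maf (0.945), Dse (0.941), Calcrl (0.941), Igfbp7 (0.937), Tgfbr2 (0.934), Sod3 (0.929), Bmp2 (0.928) and Tns3 (0.924). Maf and Bmp2 were among the further sinusoidal genes. These values describe 16 libraries that share 1 scaling, and were picked as the highest of all genes tested.

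Of 12 hepatocyte genes, 2 were lower in Cd than in control, the urea cycle gene Cps1 by a log2 fold change of -1.36 and the transcription factor gene Hnf4a by -0.81, and 3 were higher in Cd+Se than in Cd, or 1 without Cd+Se mouse 15. Of all genes tested, 24.9% were called lower in Cd and 13.6% higher in Cd+Se than in Cd, or 9.55% without that mouse. Of 8 cholangiocyte genes, 1 was tested, and it was not called. Of 6 lymphatic genes, with Lyve1 among them, 3 were tested, and Prox1 (-1.30) and Flt4 (-0.50) were lower in Cd than in control. Of the 10 genes, 3 lie on chromosome 10 (Stab2, Oit3 and Gpr182).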
